A study of Mus musculus with 2 samples.

Results

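Inward rectifier potassium channels were followed through 10 genes chosen by name, 9 *Kcnj* genes that encode pore-forming Kir subunits and *Abcc9*, which encodes the sulfonylurea receptor SUR2. They are 10 of the 28692 genes in the deposited list. Cells came from the ventral parafacial region of the medulla of wild-type C57BL/6J mice aged 10 days, and were sequenced as 2 droplet libraries. One library held untreated pups and the other pups injected with 4OH-tamoxifen at 0.2 mg per day for 3 days, and no transgene or deletion was carried by either group. Each library pooled 8 mice, 4 male and 4 female, so no value per animal could be had. The treatment, the batch and the library coincide and cannot be told apart.

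Kir channels pass potassium more readily into the cell than out of it, and so hold the resting potential near the potassium equilibrium. Kir4.1 (*Kcnj10*), alone or joined with Kir5.1 (*Kcnj16*) into a channel that is sensitive to pH, carries much of the potassium uptake of astrocytes. Kir6.1 (*Kcnj8*) and SUR2 (*Abcc9*) form the ATP-sensitive (KATP) channel of vascular mural cells, GIRK channels are opened by G-protein-coupled receptors in neurons, and Kir2.1 (*Kcnj2*) is the strong rectifier of endothelium and of many excitable cells.

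The untreated library held 3767 barcodes with 18496942 UMIs (unique transcripts counted at the 3′ end) and the 4OH-tamoxifen library 10241 barcodes with 34704167 UMIs, and 40 barcodes occurred in both. Filters kept 3339 and 8558 cells, with medians of 3628 and 2411 UMIs. A doublet caller removed 6 and 544 barcodes, so doublets may remain in the untreated library. Classes were gated on 1 marker each and are named by it: a cell needed at least 2 UMIs of its marker and at most 1 of each of the other 8. The gates took 7551 of 11897 cells (63.5%). They were *Aqp4* (astrocyte marker; 815 untreated and 1808 4OH-tamoxifen cells), *Pdgfra* (oligodendrocyte precursors; 315 and 645), *Mog* (oligodendrocytes; 443 and 1398), *C1qa* (microglia and macrophages; 352 and 596), *Cldn5* (endothelium; 231 and 327), *Pdgfrb* (mural cells; 76 and 52), *Slc32a1* (inhibitory neurons; 73 and 249), *Slc17a6* (glutamatergic neurons; 31 and 103) and *Chat* (cholinergic neurons; 7 and 30). In every class the summed level of its own marker list, without the gating gene, was at least 2.37 times that in any other class. UMIs of the oligodendrocyte list were nevertheless present in all other classes at 485 to 1849 counts per 1000000 UMIs (CPM), against 19495 and 21032 CPM in *Mog* cells. *C1qa* cells, of a lineage apart from the glia and neurons in which Kir4.1 and GIRK channels are best known, served as the reference for UMIs of free RNA. That reason does not cover *Kcnj2*, *Kcnj8* or *Abcc9*. Classes differed in depth, so a level per UMI below the reference does not show absence.

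The 10 genes differed widely in how much was counted. Gated cells held 8007 UMIs of *Kcnj10*, 1095 of *Kcnj16*, 357 of *Kcnj8*, 326 of *Abcc9*, 282 of *Kcnj3*, 99 of *Kcnj2* and 93 of *Kcnj9*. *Kcnj4* had 18 UMIs, *Kcnj6* had 10 and *Kcnj11* had 1, too few for the minimum of 50 UMIs set for the test. The remaining 7 genes gave 63 pairs of gene and class, of which 16 were higher and 14 lower than the mean of the other classes (edgeR's quasi-likelihood test on UMIs summed per library and class, adjusted p under 0.05 over 13303 genes). In *Aqp4* cells *Kcnj10* and *Kcnj16* were higher and *Abcc9* and *Kcnj2* lower, where 22.9% of all genes tested were called higher and 10.5% lower. In *Pdgfra* cells the same 4 genes were called in the same directions (background 20.1% higher and 12% lower). In *Mog* cells *Kcnj10* was higher and *Kcnj3* and *Abcc9* lower (30.2% and 21.8%), and in *C1qa* cells none was higher and *Kcnj3* lower (24.6% and 19.6%). In *Cldn5* cells *Kcnj8*, *Abcc9* and *Kcnj2* were higher and *Kcnj10* and *Kcnj3* lower (24.8% and 18.8%), and in *Pdgfrb* cells *Kcnj8* and *Abcc9* were higher and none lower (9.73% and 5.64%). In *Slc32a1* and *Slc17a6* cells *Kcnj3* and *Kcnj9* were higher and *Kcnj10* and *Kcnj16* lower (28.7% and 12.9%, and 22.6% and 12.3%). In *Chat* cells *Kcnj3* and *Kcnj2* were higher and *Kcnj10* lower (14.1% and 12.1%). At most 3 of the 7 were called in a class and direction, and no excess over the background is read from these counts. A single class exceeded each of the other 8 for 4 of the 7 genes, against 21.6% of all genes: *Aqp4* cells for *Kcnj10* and *Kcnj16*, and *Pdgfrb* cells for *Kcnj8* and *Abcc9*. A gene counted in 1 class alone can reach 50 UMIs through that class, so these counts describe the genes that could be tested and not the family. The plot of the 4 genes with a leading class shows both libraries.

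**Figure D1:**
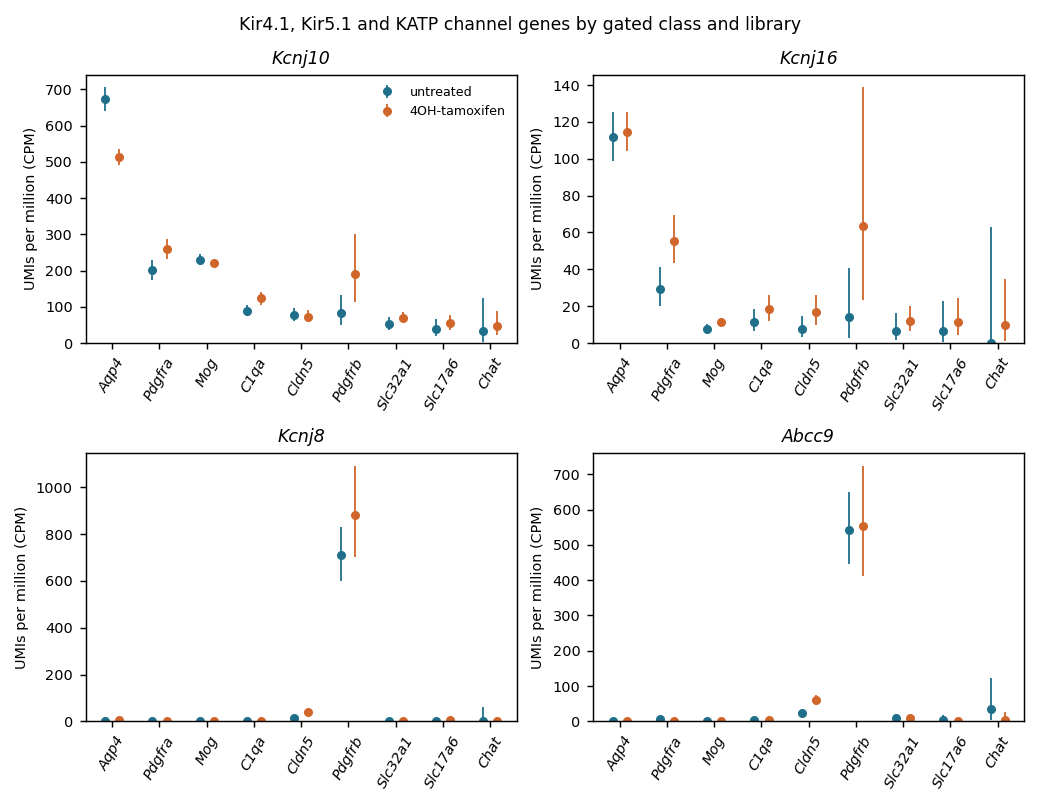
UMIs per 1000000 (CPM, linear axes that start at 0) of *Kcnj10*, *Kcnj16*, *Kcnj8* and *Abcc9* in the 9 gated classes, 1 point per library with its exact 95% Poisson interval, which covers counting error only. *Kcnj10* and *Kcnj16* were highest in *Aqp4* cells (673 and 514 CPM, and 112 and 115 CPM), and *Kcnj8* and *Abcc9* in *Pdgfrb* cells (709 and 882 CPM, and 541 and 553 CPM).

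These 4 genes lie in neighbouring pairs with other members (GENCODE positions on GRCm38). *Kcnj8* (ENSMUSG00000030247, chr6:142564837-142571614, minus strand) and *Abcc9* (ENSMUSG00000030249, chr6:142587862-142702315, minus strand) are 16247 bp apart with no annotated gene between them. *Kcnj10* (ENSMUSG00000044708, chr1:172341210-172374085, plus strand) starts 11891 bp from the start of *Kcnj9*, which runs the other way on the minus strand, and *Kcnj16* (ENSMUSG00000051497, chr11:110968033-111027968, plus strand) lies 38195 bp from *Kcnj2* on the same strand. *Abcc9* overlaps the antisense gene *5330439B14Rik*, and *Kcnj3*, *Kcnj6* and *Kcnj9* each overlap at least 1 predicted antisense gene. The promoters of the 4 genes are given because each pair of subunits had its highest level in the same class. Each runs from 250 bases before to 50 after the start in RefSeq (GRCm38.p6), 5′ to 3′ on the strand of the gene: *Kcnj10* chr1:172340960-172341259, *Kcnj16* chr11:110967783-110968082 (the first of its 4 entries), *Kcnj8* chr6:142571565-142571864 and *Abcc9* chr6:142702225-142702524. Capitals mark matches on either strand to 5 motifs, none of which overlap each other here: the TATA box (TATAAA), a nuclear factor I site (TTGGCA), the SOX core (ACAAT) and the E-boxes of neural bHLH factors (CAGCTG) and of bHLH-zipper factors (CACGTG).
*Kcnj10*: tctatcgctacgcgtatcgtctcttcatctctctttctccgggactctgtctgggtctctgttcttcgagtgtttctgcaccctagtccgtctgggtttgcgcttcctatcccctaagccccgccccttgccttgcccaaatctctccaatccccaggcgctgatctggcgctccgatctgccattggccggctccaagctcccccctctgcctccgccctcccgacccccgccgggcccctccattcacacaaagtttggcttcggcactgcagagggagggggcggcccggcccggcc
*Kcnj16*: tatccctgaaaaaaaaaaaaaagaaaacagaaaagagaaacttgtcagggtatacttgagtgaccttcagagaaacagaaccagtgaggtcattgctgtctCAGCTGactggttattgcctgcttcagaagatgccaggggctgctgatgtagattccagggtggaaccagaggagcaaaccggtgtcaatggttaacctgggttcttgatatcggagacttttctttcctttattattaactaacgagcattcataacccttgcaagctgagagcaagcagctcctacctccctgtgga
*Kcnj8*: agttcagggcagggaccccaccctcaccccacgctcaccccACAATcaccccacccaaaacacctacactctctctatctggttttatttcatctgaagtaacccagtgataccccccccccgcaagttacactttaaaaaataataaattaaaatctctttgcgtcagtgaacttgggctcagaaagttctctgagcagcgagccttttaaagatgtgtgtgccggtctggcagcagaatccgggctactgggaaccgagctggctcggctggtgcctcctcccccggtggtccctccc
*Abcc9*: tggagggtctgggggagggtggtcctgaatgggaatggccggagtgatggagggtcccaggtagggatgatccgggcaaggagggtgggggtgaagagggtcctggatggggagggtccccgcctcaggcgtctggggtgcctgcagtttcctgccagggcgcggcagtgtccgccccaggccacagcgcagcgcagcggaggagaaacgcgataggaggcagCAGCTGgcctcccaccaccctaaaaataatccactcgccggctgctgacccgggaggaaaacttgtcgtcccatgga
Across 32851 promoters of this length, the TATA letters were held by 13.6%, the nuclear factor I letters by 14.1%, the SOX letters by 31.0%, CAGCTG by 16.3% and CACGTG by 7.15%. The *Kcnj8* window held 1 SOX match, the *Abcc9* and *Kcnj16* windows 1 CAGCTG match each, and the *Kcnj10* window no match. Of the other 3 *Kcnj16* entries, which are not printed, the second and the fourth held 1 nuclear factor I match each and the third 1 TATA and 1 CAGCTG match. No motif of this set was shared within either pair. GC content was 63.7% for *Kcnj10*, 44.3% for *Kcnj16*, 53.3% for *Kcnj8* and 65.7% for *Abcc9*.

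*Kcnj10*, the Kir4.1 subunit, was an *Aqp4*-cell gene with a second level in the oligodendrocyte lineage. In *Aqp4* cells it reached 673 CPM (95% interval 641 to 706) in the untreated library and 514 CPM (492 to 537) in the 4OH-tamoxifen library. In *Pdgfra* cells it was 201 and 259 CPM, in *Mog* cells 230.3 and 219.6 CPM, and in *C1qa* cells 89.4 and 123 CPM. Both *Aqp4* values lay above every other class in either library. Against the mean of the other classes the log2 fold change was 2.76 ± 0.13 (SE, adjusted p = 7.1e-25). *Mog* cells were above *C1qa* cells (log2 fold change 1.09 ± 0.20, adjusted p = 5.8e-06), as were *Pdgfra* cells (0.59 ± 0.21, adjusted p = 0.0196). The astrocyte list without *Aqp4* stood at 2031 CPM in 4OH-tamoxifen *Pdgfra* cells, its highest level outside *Aqp4* cells. The part of astrocyte RNA in the *Pdgfra* level was not tested. *Pdgfra* and *Mog* cells changed order with the library on the CPM scale, while the scaled fit placed *Pdgfra* below *Mog* (log2 fold change -0.51 ± 0.19, adjusted p = 0.0255).

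The share of cells with a *Kcnj10* UMI depended on depth. It was 78.4% and 64.2% of *Aqp4* cells and 83.1% and 71.3% of *Mog* cells, whose median depths were 2744 and 2058 against 9383 and 6504 UMIs. With each cell thinned to 2000 UMIs, and shallower cells left out, the shares were 70.5% of 728 and 60.4% of 994 *Aqp4* cells, 34.4% of 436 and 34.0% of 1357 *Mog* cells, 30.5% of 298 and 40.4% of 275 *Pdgfra* cells, and 17.4% of 340 and 21.5% of 414 *C1qa* cells. Thinning left out 87 and 814 *Aqp4* cells and 7 and 41 *Mog* cells. Thinned shares were 12.3% and 13.2% in *Slc32a1* cells and 13.3% and 17.2% in *Slc17a6* cells, with intervals that overlapped those of *C1qa* cells, and 2 of 7 and 3 of 30 in *Chat* cells. *Slc32a1* cells held 0.578 (95% interval 0.382 to 0.852) and 0.554 (0.421 to 0.724) times the *Kcnj10* CPM of *C1qa* cells. Their unthinned shares of 32.9% and 26.1% lay close to the 29.3% and 26.7% of *C1qa* cells, at median depths of 8605 and 4272 against 4032.5 and 2328 UMIs. In *Cldn5* cells the thinned shares were 17.9% (12.9% to 23.8%) and 13.6%, with intervals that also overlapped those of *C1qa* cells. No *Kcnj10* expression is read from these classes, and whether free RNA or low expression gave their UMIs was not tested. In *Pdgfrb* cells 18 UMIs in each library gave 84.0 and 191 CPM, which the test did not separate from *C1qa* cells (adjusted p = 0.69).

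*Kcnj16*, the Kir5.1 subunit that needs a Kir4 partner at the membrane, was called higher in *Aqp4* and *Pdgfra* cells, as *Kcnj10* was, but not in *Mog* cells. Its CPM was 112 (98.8 to 126) and 115 (104 to 125) in *Aqp4* cells, 29.2 and 55.4 in *Pdgfra* cells, 7.50 and 11.3 in *Mog* cells, and 11.5 and 18.2 in *C1qa* cells. *Aqp4* cells were above the mean of the others by a log2 fold change of 3.15 ± 0.17 (adjusted p = 4.6e-22) and *Pdgfra* cells by 1.21 ± 0.25 (adjusted p = 8.8e-05). *Pdgfra* cells were also above *C1qa* cells (0.99 ± 0.31, adjusted p = 0.0081). In 4OH-tamoxifen cells the astrocyte list without *Aqp4* stood at 2031 CPM in *Pdgfra* cells, against 7665 CPM in *Aqp4* cells. The part of astrocyte RNA in the *Pdgfra* levels was not tested. *Mog* cells held 0.651 (0.351 to 1.25) and 0.621 (0.406 to 0.980) times the CPM of *C1qa* cells, a difference that missed the threshold in the fit (log2 fold change -0.63 ± 0.31, adjusted p = 0.093). Without thinning *Kcnj16* was found in 6.998% and 6.80% of *Mog* cells and in 4.83% and 4.36% of *C1qa* cells, which were shallower. With thinning it was found in 1.83% and 2.65% of *Mog* cells, 2.94% and 2.90% of *C1qa* cells and 18.3% and 19.1% of *Aqp4* cells. No *Kcnj16* expression above the reference was detectable in *Mog* cells per UMI, and the part of free RNA was not tested.

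The ratio of the 2 subunits' UMIs within a class needs no scaling by total UMIs. Whether it varied with depth was not tested, and the deeper untreated library gave the higher value in each class named here. There were 6.03 (5.30 to 6.87) and 4.49 (4.06 to 4.97) *Kcnj10* UMIs per *Kcnj16* UMI in *Aqp4* cells and 6.88 and 4.68 in *Pdgfra* cells. *C1qa* cells gave 7.76 (4.67 to 13.7) and 6.75 (4.52 to 10.4), and *Slc32a1* cells 8.25 and 5.71. In *Mog* cells the ratio was 30.7 (21.6 to 45.2) and 19.4 (15.9 to 23.9). The *Mog* intervals lay above those of *Aqp4*, *Pdgfra* and *C1qa* cells in the same library. In the untreated library they overlapped those of *Slc32a1* cells (2.93 to 32.1) and *Cldn5* cells (5.09 to 25.1), which rest on 4 and 8 *Kcnj16* UMIs, and in the 4OH-tamoxifen library they did not, while the ratios of *C1qa* and *Slc32a1* cells lay near that of *Aqp4* cells. Detection of one subunit did not separate *Aqp4* cells by the other beyond the intervals: at 2000 UMIs *Kcnj16* was seen in 17.2% of untreated cells with *Kcnj10* and 20.9% without, and in 20.7% and 16.8% of 4OH-tamoxifen cells, with intervals that overlap in each library.

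**Figure D2:**
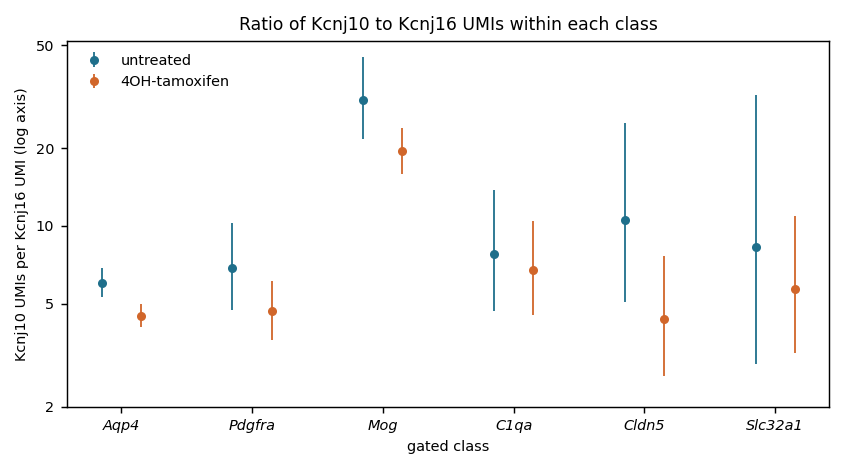
Number of *Kcnj10* UMIs per *Kcnj16* UMI (log axis) in 6 gated classes, 1 point per library with its exact 95% conditional interval, which covers counting error only. The ratio was 30.7 and 19.4 in *Mog* cells and between 4.37 and 10.5 in the other 5 classes.

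Within *Aqp4* cells, those with at least 2 *Gfap* UMIs and those with none differed in neither subunit beyond the test: *Kcnj10* was 658 and 509.6 CPM in *Gfap*-positive against 728 and 544 CPM in *Gfap*-negative cells (log2 fold change -0.20 ± 0.18, adjusted p = 0.68, where 3.07% of all genes were called higher and 1.97% lower), and *Kcnj16* 129 and 126 against 106 and 123 CPM (0.06 ± 0.17, adjusted p = 0.92). Ungated cells with at least 2 UMIs of *Gpr17*, a marker of committed oligodendrocyte precursors, had *Kcnj10* at 183 and 189 CPM, which did not differ from *Pdgfra* cells beyond the test (adjusted p = 0.61), and *Kcnj16* at 21.0 and 22.0 CPM, below the 29.2 and 55.4 CPM of *Pdgfra* cells (log2 fold change -0.78 ± 0.26, adjusted p = 0.0216, where 10.9% of all genes were called lower). Each *Gpr17* contrast was fitted against *Pdgfra* cells with and without a UMI of *Mki67* or *Top2a*, the 2 subsets weighted equally. The 29.2 and 55.4 CPM are those of the whole *Pdgfra* class. The *Kcnj16* call was lost in 5 of the alternatives, among them the fit with no library block (adjusted p = 0.13). *Kcnj10* in *Mog* cells was 238 and 262 CPM with *Klk6*, a marker of a mature oligodendrocyte state, and 227 and 202 CPM without (adjusted p = 0.37, where 5.84% of all genes were called higher).

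Genes of the Kir4.1 environment were described from 8 listed genes: the glutamate transporters (*Slc1a2*, *Slc1a3*), the genes of MLC1 and GlialCAM, the dystroglycan gene *Dag1*, the sodium pump subunit *Atp1b2*, and the connexins *Gja1* and *Gjb6*. All 8 were higher in *Aqp4* cells (median log2 fold change 3.96 against 0.11 over all genes, where 22.9% of all genes were called higher), and 3 of them also belong to the astrocyte marker list. In *Pdgfra* and *Pdgfrb* cells 4 of the 8 were higher and none lower (20.1% and 9.73% of all genes higher), and in *Mog* cells *Hepacam* was higher and the other 7 were lower (30.2% and 21.8% of all genes). In *C1qa* cells 2 were higher and 2 lower (24.6% and 19.6% of all genes), and in *Cldn5* cells 1 and 4 (24.8% and 18.8%). In *Slc32a1*, *Slc17a6* and *Chat* cells none was higher and 7, 8 and 6 were lower (12.9%, 12.3% and 12.1% of all genes lower). *Hepacam*, which encodes GlialCAM, had 400 and 365 CPM in *Aqp4* cells, 86.2 and 92.6 CPM in *Mog* cells and 15.6 and 39.0 CPM in *C1qa* cells. *Mlc1*, which encodes its partner MLC1, had 592 and 487 CPM in *Aqp4* cells, and its 20.1 and 23.5 CPM in *Mog* cells lay below the 35.2 and 44.2 CPM of *C1qa* cells.

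*Kcnj8* and *Abcc9*, the KATP subunits, were mural-cell genes. *Kcnj8* gave 709 (601 to 831) and 882 (702 to 1093) CPM in *Pdgfrb* cells, from 152 and 83 UMIs, against 3.39 and 3.25 CPM in *C1qa* cells. *Abcc9* gave 541 (447 to 649) and 553 (413 to 725) CPM, from 116 and 52 UMIs, against 2.71 and 3.25 CPM. Among the other 8 gated classes, each taken whole, the highest level of either gene was 59.5 CPM, of *Abcc9* in *Cldn5* cells. The log2 fold change against the mean of the others was 8.61 ± 0.28 for *Kcnj8* (adjusted p = 3.0e-31) and 6.80 ± 0.26 for *Abcc9* (adjusted p = 9.1e-29). At least 1 UMI was found in 68.4% and 65.4% of *Pdgfrb* cells for *Kcnj8* and in 64.5% and 57.7% for *Abcc9*. In *C1qa* cells these shares were 1.14% and 0.671% for *Kcnj8* at median depths of 4032.5 and 2328 UMIs, against 2399.5 and 1737.5 UMIs in *Pdgfrb* cells.

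The *Pdgfrb* gate also held a few cells of other kinds. With at least 2 *Dcn* UMIs, a fibroblast gene, were 7 untreated and 2 4OH-tamoxifen cells, in which no *Kcnj8* UMI and 1 *Abcc9* UMI were counted, and 1 cell in each library had at least 3 UMIs of *Acta2*, a smooth-muscle gene, and no UMI of either subunit. All 152 and 83 *Kcnj8* UMIs lay in the 68 and 49 cells with neither gene, where *Kcnj8* was 843 and 957 CPM and *Abcc9* 638 and 599 CPM. The 2 *Acta2* cells are too few to show whether smooth muscle lacked the subunits. At 2000 UMIs, *Abcc9* was found in 69.2% of 39 untreated *Pdgfrb* cells with *Kcnj8* (52.4% to 83.0%) and in 43.5% of 23 without (23.2% to 65.5%), and in 4 of 8 and 1 of 5 4OH-tamoxifen cells, intervals that overlap.

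By the mean of the 2 libraries, *Cldn5* cells came next after *Pdgfrb* cells for both subunits, though 2 UMIs of *Abcc9* gave 34.1 CPM in untreated *Chat* cells. *Kcnj8* was 13.8 and 41.2 CPM there and *Abcc9* 24.9 and 59.5 CPM, and each was called higher than the mean of the other classes (log2 fold changes 3.38 ± 0.45 and 2.88 ± 0.28, adjusted p = 6.5e-09 and 1.1e-12, where 24.8% of all genes were called higher). The summed level of the pericyte list without *Pdgfrb* was 1314 CPM in 4OH-tamoxifen *Cldn5* cells, the highest outside *Pdgfrb* cells. After these levels had been seen, *Cldn5* cells were split by whether they held at least 2 UMIs of the pericyte list. In the 89 and 149 cells that did, *Kcnj8* was 28.5 (15.6 to 47.8) and 76.3 (56.1 to 102) CPM and *Abcc9* 55.0 and 106 CPM. The 142 and 178 cells that did not held 1 and 0 UMIs of *Kcnj8* and 0 and 3 UMIs of *Abcc9*, with upper 95% limits of 9.37 and 7.01 CPM for *Kcnj8* and of at most 16.7 CPM for *Abcc9*. The intervals of both genes in these cells overlapped those of *C1qa* cells. Whether pericyte RNA or attached pericytes account for these UMIs was not tested.

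**Figure D3:**
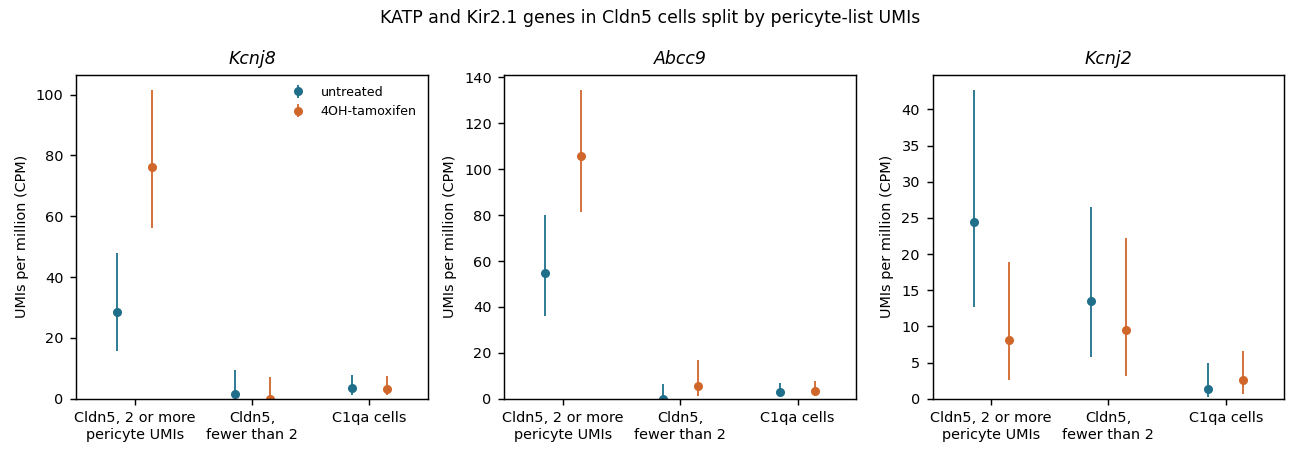
CPM (linear axes that start at 0) of *Kcnj8*, *Abcc9* and *Kcnj2* in *Cldn5* cells with and without at least 2 UMIs of the pericyte list, and in *C1qa* cells, 1 point per library with its exact 95% Poisson interval. *Kcnj8* was 28.5 and 76.3 CPM in cells with at least 2 and 1.68 and 0 CPM in cells with fewer, and *Kcnj2* was 24.4 and 8.12 CPM in the former and 13.5 and 9.50 CPM in the latter.

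Ungated cells showed the same association. Among them *Kcnj8* had 202 untreated and 216 4OH-tamoxifen UMIs, of which 198 and 203 lay in the 117 and 195 cells with at least 4 UMIs of the pericyte list. *Abcc9* had 151 of 154 and 176 of 203 UMIs in the same cells. These cells held 231 and 215 CPM of *Kcnj8*, against 0.889 and 1.35 CPM in the other ungated cells, so more than 1 in 2 *Kcnj8* UMIs (418 of 775) fell outside the single-marker gates.

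*Kcnj2*, the Kir2.1 subunit, was low everywhere. *Cldn5* cells held 18.4 (11.3 to 28.5) and 8.76 (4.20 to 16.1) CPM, from 20 and 10 UMIs, above *C1qa* cells with 1.35 and 2.60 CPM (log2 fold change of *C1qa* over *Cldn5* cells -2.53 ± 0.70, adjusted p = 0.0035). The log2 fold change against the mean of the others was 2.44 ± 0.50 (adjusted p = 4.7e-05). The ratio of *Cldn5* to *C1qa* cells was 13.6 (3.30 to 119.98) in the untreated and 3.37 (0.971 to 14.7) in the 4OH-tamoxifen library, the latter an interval that includes 1. In *Cldn5* cells with fewer than 2 pericyte UMIs *Kcnj2* was 13.5 (5.81 to 26.5) and 9.50 (3.08 to 22.2) CPM, from 8 and 5 UMIs, and intervals overlapped those of cells with at least 2 in both libraries and that of *C1qa* cells in the 4OH-tamoxifen library. In the untreated library 5 of its 20 UMIs came from 5 *Cldn5* cells with arterial genes (*Gkn3* or *Bmx*), 4 of them from a single cell, and the 10 arterial cells of the 4OH-tamoxifen library held none. *Chat* cells had the highest CPM, 34.1 and 19.3, but from 2 and 4 UMIs in 1 and 3 cells. Their call (log2 fold change 2.68 ± 0.94, adjusted p = 0.0268) turned to -4.30 (adjusted p = 1) when cells over 10% mitochondrial UMIs were left out, and missed the threshold with fibroblast cells left out (2.15, adjusted p = 0.16). *Aqp4* and *Pdgfra* cells, with 5 and 1 UMIs over both libraries, were called lower (log2 fold changes -2.18 ± 0.77 and -3.28 ± 1.09, adjusted p = 0.0233 and 0.0165).

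*Kcnj3*, which encodes GIRK1, had its highest levels in the neuronal classes, as did *Kcnj9* (GIRK3). *Kcnj3* was 34.5 (21.6 to 52.2) and 51.1 (39.0 to 65.8) CPM in *Slc32a1* cells, 50.1 and 58.0 CPM in *Slc17a6* cells, 85.3 and 62.7 CPM in *Chat* cells (5 and 13 UMIs) and 1.35 and 1.30 CPM in *C1qa* cells. Log2 fold changes against the mean of the others were 2.55 ± 0.28, 2.78 ± 0.34 and 2.88 ± 0.49 in this order (adjusted p = 5.2e-11, 7.8e-10 and 5.0e-06, where 28.7%, 22.6% and 14.1% of all genes were called higher). The 3 neuronal classes were not separated from each other (adjusted p between 0.74 and 0.97). *Kcnj9* was 37.6 and 18.7 CPM in *Slc17a6* cells and 11.0 and 12.8 CPM in *Slc32a1* cells, against 2.03 and 1.95 CPM in *C1qa* cells, and both neuronal classes were called higher (log2 fold changes 3.65 ± 0.60 and 2.53 ± 0.61, adjusted p = 1.5e-06 and 0.00057). With classes taken from marker lists, *Kcnj9* in *Slc17a6* cells missed the threshold (1.20, adjusted p = 0.60). *Chat* cells held 2 *Kcnj9* UMIs in each library and missed the threshold (adjusted p = 0.089). *Kcnj6*, which encodes GIRK2, had 3 UMIs in *Slc32a1* cells, 2 in *Slc17a6* cells, none in *Chat* cells, 3 in *Pdgfra* cells and 1 each in *Aqp4* and *C1qa* cells, with upper 95% limits of 8.73 and 6.15 CPM in *Slc32a1* cells.

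**Figure D4:**
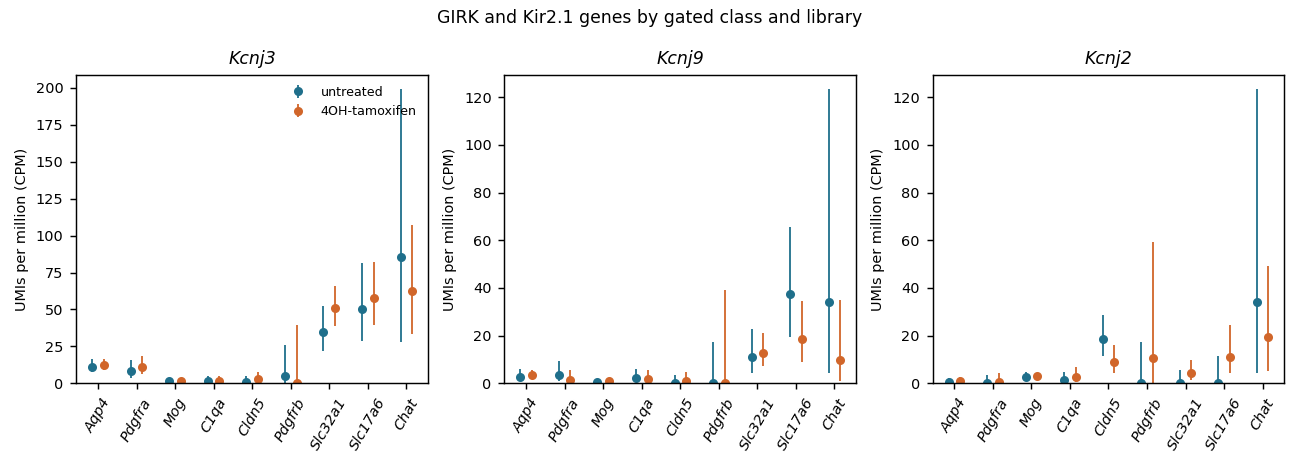
CPM (linear axes that start at 0) of *Kcnj3*, *Kcnj9* and *Kcnj2* in the 9 gated classes, 1 point per library with its exact 95% Poisson interval. *Kcnj3* lay between 34.5 and 85.3 CPM in the neuronal classes and at or below 12.5 CPM elsewhere, and the wide intervals of *Chat* cells rest on 7 and 30 cells.

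A difference in *Kcnj3* among inhibitory neurons was called, and most alternatives did not keep it. *Slc32a1* cells with at least 2 UMIs of *Sst*, the gene of the peptide somatostatin, held 57.2 and 85.2 CPM (16 and 36 UMIs in 32 and 83 cells), and those with no *Sst* UMI 14.8 and 33.3 CPM (5 and 21 UMIs in 39 and 137 cells). The higher value was on the *Sst* side in both libraries, and the log2 fold change was 1.48 ± 0.37 (adjusted p = 0.0425, where 0.249% of all genes were called higher and 0.399% lower). The adjusted p ran from 0.032 to 0.15 over 9 alternatives and missed the threshold in 6 of them. Among *Slc17a6* cells, *Kcnj3* was 9.48 (0.240 to 52.8) and 19.5 (4.02 to 57.0) CPM with at least 2 UMIs of *Nmb*, a peptide gene of chemosensitive retrotrapezoid neurons, and 70.8 (39.6 to 117) and 73.5 (46.6 to 110) CPM with none. These groups had 15 cells each in the untreated library and were not tested.

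*Aqp4* and *Pdgfra* cells also held *Kcnj3* above the reference. The level was 11.3 and 12.5 CPM in *Aqp4* cells and 8.22 and 11.2 CPM in *Pdgfra* cells, and both exceeded *C1qa* cells (log2 fold changes 2.85 ± 0.58 and 2.30 ± 0.67, adjusted p = 4.2e-05 and 0.0046). Thinned shares were 2.06% and 1.81% of *Aqp4* cells against 0.294% of 340 and 0 of 414 *C1qa* cells, the latter with an upper 95% limit of 0.887%. They were 1.01% (0.208% to 2.91%) and 3.27% of *Pdgfra* cells, and the untreated intervals of both classes overlapped that of *C1qa* cells. In *Aqp4* cells with fewer than 2 UMIs of the neuron list *Kcnj3* was 12.2 and 11.9 CPM and *Kcnj9* 2.26 and 1.53 CPM. With at least 2, *Kcnj3* was 3.91 and 14.7 CPM (1 and 12 UMIs) and *Kcnj9* 7.81 and 11.0 CPM (2 and 9 UMIs). In *Pdgfra* cells *Kcnj3* was 7.96 and 11.5 CPM with fewer than 2 and 9.28 and 10.3 CPM with at least 2. The part of neuronal RNA in these levels was not tested. *Gfap*-positive *Aqp4* cells held 19.7 and 18.5 CPM of *Kcnj3* and *Gfap*-negative cells 7.47 and 7.71 CPM, a difference that missed the threshold (log2 fold change 1.23 ± 0.40, adjusted p = 0.062). In *Pdgfra* cells with a UMI of the proliferation genes *Mki67* or *Top2a* it was 15.7 and 23.2 CPM, against 5.15 and 6.34 CPM in the rest, which missed it too (log2 fold change 1.68 ± 0.60, adjusted p = 0.15, where 2.4% of all genes were called higher and 0.58% lower).

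Receptors and regulators that act on GIRK channels were described from a list of 14, of which 7 had enough UMIs. In each neuronal class 6 of the 7 were higher and none lower (median log2 fold changes 2.02, 1.81 and 1.42 in *Slc32a1*, *Slc17a6* and *Chat* cells, against 0.16, 0.07 and -0.18 over all genes, of which 28.7%, 22.6% and 14.1% were called higher). In *Aqp4* cells 4 and in *Pdgfra* cells 3 of the 7 were also higher and none lower (22.9% and 20.1% of all genes higher). In *Mog*, *C1qa*, *Cldn5* and *Pdgfrb* cells none was higher, and 5, 4, 6 and 2 were lower (21.8%, 19.6%, 18.8% and 5.64% of all genes lower). The GABA-B receptor subunits stood at 692 and 708 CPM (*Gabbr1*) and 193 and 182 CPM (*Gabbr2*) in *Slc32a1* cells. *Rgs8*, a regulator of G-protein signalling, had 12.5 and 22.1 CPM in *Slc32a1* cells, 31.3 and 33.7 CPM in *Slc17a6* cells and no UMI in *Chat* cells. *Chrm2*, the muscarinic M2 receptor, was 102 and 86.8 CPM in *Chat* cells and 21.9 and 27.3 CPM in *Slc32a1* cells.

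*Kcnj4* and *Kcnj11* could not be placed. *Kcnj4* (Kir2.3) had 15 of its 18 gated UMIs in *Mog* cells, 1.64 (0.659 to 3.38) and 0.878 (0.379 to 1.73) CPM, and none in neurons. With 7 and 8 UMIs in *Mog* cells and 2 and 1 in *Aqp4* cells, the *Mog* to *Aqp4* ratios of 2.03 and 3.59 had intervals that included 1. *Kcnj11* (Kir6.2), the pore of the neuronal KATP channel, had a single gated UMI, in a 4OH-tamoxifen *Slc32a1* cell. Its partner *Abcc8*, which encodes SUR1 and lies 3758 bp from *Kcnj11* on chromosome 7, was detected in neurons at 17.2 and 15.3 CPM (*Slc32a1*), 18.8 and 26.2 CPM (*Slc17a6*) and 51.2 and 38.6 CPM (*Chat*), and was called higher in all 3 classes (log2 fold changes 3.22 to 4.38).

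Other genes of the family were read from a list of 7, of which *Kcnj12*, *Kcnj14* and *Abcc8* had enough UMIs. *Kcnj1* had no UMI in the cells kept, and *Kcnj5*, *Kcnj13* and *Kcnj15* had 8, 10 and 7 UMIs in gated cells, the last 7 all in *Cldn5* cells. *Kcnj14* (Kir2.4) was 34.1 and 96.4 CPM in *Chat* cells, from 2 and 20 UMIs, and at most 10.6 CPM elsewhere (log2 fold change 3.65 ± 0.50, adjusted p = 4.5e-08). *Kcnj12* (Kir2.2) had 17.1 and 14.5 CPM in *Chat* cells (1 and 3 UMIs), 28.0 and 0 CPM in *Pdgfrb* cells (6 and 0 UMIs), 9.39 and 11.2 CPM in *Slc17a6* cells and 9.14 and 7.69 CPM in *Mog* cells. Of these 4 classes only *Mog* cells were called higher than the mean of the others (log2 fold change 1.44 ± 0.33, adjusted p = 0.00024, where 30.2% of all genes were called higher). *Pdgfra* and *Cldn5* cells were called lower (adjusted p = 0.0013 and 0.031, where 12% and 18.8% of all genes were called lower). Within the oligodendrocyte lineage *Pdgfra* cells held 0 and 1 UMIs, *Gpr17* cells 4.80 and 20.9 CPM (8 and 76 UMIs), *Mog* cells without *Klk6* 11.98 and 9.96 CPM and *Mog* cells with *Klk6* 2.97 and 2.24 CPM. It was higher in *Gpr17* than in *Pdgfra* cells (adjusted p = 2.5e-05, where 13.6% of all genes were called higher) and lower in *Mog* cells with *Klk6* than without (log2 fold change -2.03 ± 0.56, adjusted p = 0.0079, where 6.65% of all genes were called lower). With 0 and 1 UMIs in *Pdgfra* cells and unlike levels in the 2 libraries of *Gpr17* cells, no size is given for the first difference.

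The 2 libraries were compared within each class as ratios of CPM, untreated over 4OH-tamoxifen, with no test since each condition was 1 library. Of 29 pairs of gene and class with at least 20 UMIs, 3 were past 2-fold with the untreated library higher and 5 with the 4OH-tamoxifen library higher, and 9 intervals excluded 1. The past-2-fold pairs were *Kcnj9* in *Slc17a6* cells (2.01), *Kcnj8* in *Mog* cells (2.56) and *Kcnj2* in *Cldn5* cells (2.104) toward the untreated library, and *Kcnj8* in *Aqp4* cells (0.414), *Kcnj10* in *Pdgfrb* cells (0.439) and *Kcnj8*, *Abcc9* and *Kcnj16* in *Cldn5* cells (0.336, 0.418 and 0.443) toward the 4OH-tamoxifen library. The background was all genes with at least 20 UMIs in the class, not matched to the UMIs of these pairs. Over these genes, the share past 2-fold toward the untreated and toward the 4OH-tamoxifen library was 1.57% and 3.96% in *Aqp4* cells, 3.12% and 2.35% in *Pdgfra* cells, 1.13% and 2.53% in *Mog* cells, 1.91% and 7.36% in *C1qa* cells and 2.02% and 4.01% in *Cldn5* cells. It was 9.69% and 3.87% in *Pdgfrb* cells, 1.54% and 3.72% in *Slc32a1* cells, 3.12% and 5.72% in *Slc17a6* cells and 6.78% and 12.6% in *Chat* cells. Of the 8 pairs past 2-fold 4 lay in *Cldn5* cells. The intervals of *Kcnj9* in *Slc17a6* cells, *Kcnj8* in *Aqp4* cells, and *Kcnj2* and *Kcnj16* in *Cldn5* cells included 1. Genes with few UMIs pass 2-fold more easily by counting error, so no excess over the background is read from these counts. *Kcnj10* in *Aqp4* cells was 1.31 times as high in the untreated library (1.23 to 1.40) with *Kcnj16* at 0.974 (0.836 to 1.13). The ratio in *Mog* cells was 1.05 (0.971 to 1.13) for *Kcnj10*. In *Pdgfrb* cells the intervals of the KATP subunits included 1, with ratios of 0.804 (0.611 to 1.06) for *Kcnj8* and 0.979 (0.700 to 1.39) for *Abcc9*. In *Cldn5* cells they were 0.336 (0.174 to 0.611) and 0.418 (0.257 to 0.661), where the pericyte list stood at 1005 and 1314 CPM and 89 of 231 untreated and 149 of 327 4OH-tamoxifen cells held at least 2 of its UMIs. In *Pdgfra* cells *Kcnj10* and *Kcnj16* were at 0.775 (0.652 to 0.921) and 0.527 (0.337 to 0.808), where the astrocyte list stood at 1307 and 2031 CPM and the fibroblast list at 668 and 130.3 CPM. The part of these other cell types in the ratios was not tested.

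**Figure D5:**
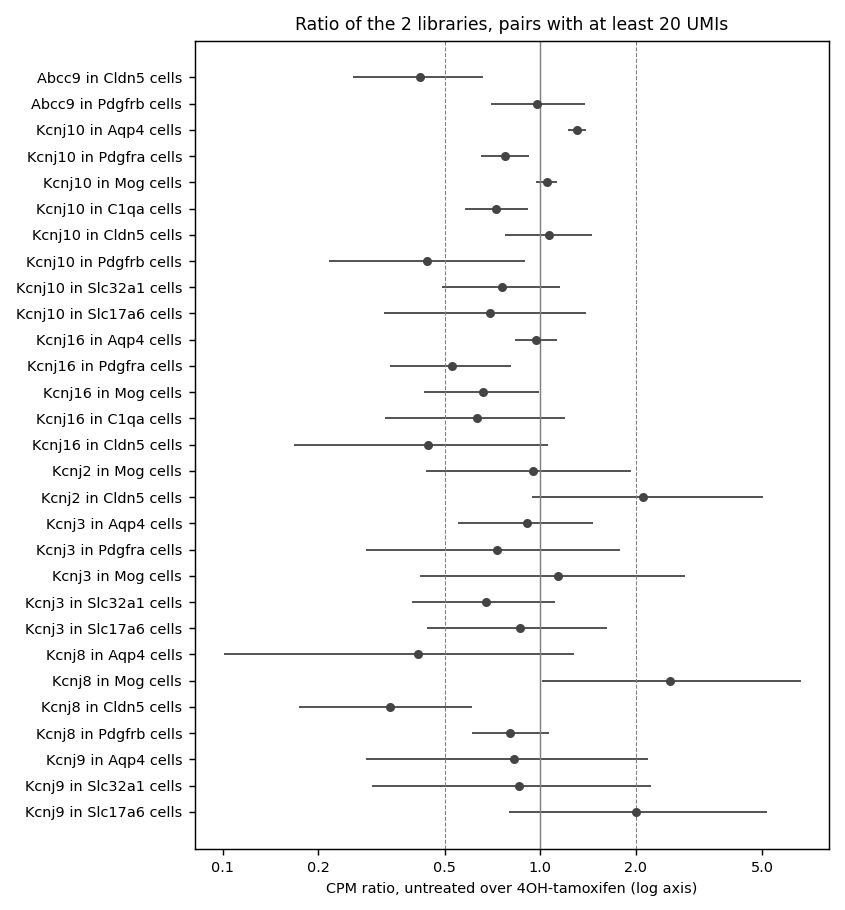
Ratio of CPM in the untreated over the 4OH-tamoxifen library (log axis) for the 29 pairs of gene and class with at least 20 UMIs, with exact conditional 95% intervals that cover counting error only. The solid line marks a ratio of 1 and the dashed lines 2-fold. *Kcnj8* and *Abcc9* in *Cldn5* cells lie at 0.336 and 0.418, and *Kcnj10* in *Aqp4* cells at 1.31.

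The genes whose levels ran most like those of a member were ranked by Pearson's r of log2(CPM + 1) over the 18 library and class values, among 10578 genes. These points share libraries and free RNA, so r is a description. *Cox4i2*, *Higd1b* and *Myl9* came closest to *Kcnj8* (r 0.98, 0.95 and 0.93) and *Pelo*, *Higd1b* and *Tnks1bp1* to *Abcc9* (0.91, 0.91 and 0.90). *Mmd2*, *Plpp3* and *6430503K07Rik* came closest to *Kcnj10* (0.96, 0.95 and 0.93), *Kcne1l*, *Ednrb* and *Il33* to *Kcnj16* (0.96, 0.95 and 0.94), and *Abcg4*, *Adcy2* and *Ube2o* to *Kcnj3* (each 0.97). The partners of each channel ranked lower: r was 0.80 between *Kcnj8* and *Abcc9*, which placed them at 50 and 35 on each other's list, and 0.82 between *Kcnj10* and *Kcnj16*, at 55 and 84. With 10 CPM added in place of 1, *Kcnj8* and *Abcc9* stood at 10 and 5 (r 0.94) and *Kcnj10* and *Kcnj16* at 37 and 80 (r 0.85). The nearest genes changed with it: of the 3 named, *Kcnj16* kept none (*Slc1a2*, *Rfx4* and *Slc4a4* came in), *Kcnj3* kept 1 (*Ube2o*), and *Kcnj8*, *Kcnj10* and *Abcc9* kept 2 each.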

How the data were processed

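Cells of the ventral parafacial region were dissociated by the authors with a protease, captured with the 10x Genomics Chromium 3′ version 2 chemistry and sequenced as 2 libraries. The deposited values are raw counts of UMIs per gene and barcode, which the authors made with bcl2fastq 2.18.0.12 and Cell Ranger 2.2.0 on the mm10 (GRCm38) reference, per the submitters' processing notes. Doublets and low-quality barcodes had not been removed from the deposited matrices.

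Barcodes called doublets by Scrublet in each library (scanpy 1.11.5) were left out, as were those with under 800 genes (119 and 865 in the untreated and 4OH-tamoxifen libraries), over 50 hemoglobin UMIs (114 and 173) or over 20% mitochondrial UMIs (303 and 415). Some barcodes failed more than 1 filter. Cells were gated by single markers, not by the clusters of the study, so shares and levels may differ from those of its cell types. The 8 mice of a library cannot be separated, and the 2 libraries served as the replicates of each class contrast. With the library as a block, p-values measure only the spread left between these libraries after their overall difference was removed. That spread was estimated for each gene over all classes of the fit together, not for each class, and it does not measure the spread between animals. UMIs were summed per library and class and tested in edgeR 4.0.16 (R 4.3.3) by the quasi-likelihood test, with TMM scaling, the library as a block, genes with at least 50 UMIs and Benjamini-Hochberg adjustment over all genes in each contrast. Subsets needed 20 cells in each library, which left 5 contrasts. DESeq2 1.42.0 was an alternative.

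CPM are UMIs per 1000000 UMIs of the summed cells. Their exact Poisson intervals, the exact conditional intervals of ratios and the exact (Clopper-Pearson) binomial intervals of shares are at the 95% level and cover counting error only (scipy 1.17.1, numpy 2.4.6, Python 3.11.15). Where a share or count was 0, the limit given is the upper bound of that interval. The tests and ratio intervals were tested on simulated data. The 10 members and all lists were chosen with earlier results of these data known. Genes named beside the members came from lists of family, receptor and Kir4.1-related genes, or were the 3 genes of highest r for each member with at least 200 UMIs. *Hepacam* stood for GlialCAM, which had no entry of that name. A few genes of that last list are not reported here.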

Additional observations from a re-analysis of the deposited data

Results flagged for a closer look

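The ratio of the untreated over the 4OH-tamoxifen library pointed in opposite directions in different classes for a pair of genes, with counting intervals on opposite sides of 1. *Kcnj8* was at 2.56 (1.01 to 6.62) in *Mog* cells, from 12 and 10 UMIs, and at 0.336 in *Cldn5* cells. Of the 12 untreated *Mog* UMIs 5 came from 1 of the 7 cells with any, so the position of that interval above 1 rests on few cells. *Kcnj10* was at 1.31 in *Aqp4* cells, and at 0.775 in *Pdgfra* cells, 0.728 in *C1qa* cells and 0.439 (0.215 to 0.895) in *Pdgfrb* cells. The difference between classes was not tested, since each condition was 1 library. The *Kcnj8* level in *Mog* cells, 2.81 and 1.10 CPM, was below the 3.39 and 3.25 CPM of the *C1qa* reference.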

How the results depend on the processing

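Over the alternatives, 15 to 17 pairs of member and class were higher (16 as reported) and 3 or 4 members had a leading class; *Kcnj16* lost its own with a gate of at least 1 UMI of the marker and 0 of the others. The libraries were the replicates, paired across classes as a block, and with no replicate block the counts were 16 and 4. Calls between subsets were 2 or 3 with other doublet settings, 500 genes, no filter or total UMIs only, against 2 as reported. There were 1 with the gate of 1 and 0 UMIs, 1 at 10% mitochondrial UMIs, 1 under filterByExpr, and 0 with the gate of 2 and 0 UMIs, at 1200 genes, with DESeq2 and with no replicate block. At an unadjusted p under 0.05 these last 4 settings gave 3, 5, 5 and 5 calls, against 5 as reported. Both stricter gates and the 10% setting left 4 contrasts in place of 5, and 500 genes and no doublet removal gave 6. Of library ratios past 2-fold, 8 as reported, 1 was left with either stricter gate, 3 with classes from marker lists, 5 at 1200 genes, 4 at 10% mitochondrial UMIs and 2 with at least 50 UMIs. *Kcnj2* in *Chat* cells turned to -4.30 at 10% mitochondrial UMIs (adjusted p = 1). *Kcnj9* in *Slc17a6* cells was 1.20 with classes from marker lists (adjusted p = 0.60). With either library alone, log2(CPM + 1) was compared with its mean over the other classes, for the class of highest CPM only. The difference was 2.25 to 3.04 (*Kcnj10*) and 2.53 to 3.77 (*Kcnj16*) in *Aqp4* cells, and 7.72 to 8.30 (*Kcnj8*) and 6.29 to 6.74 (*Abcc9*) in *Pdgfrb* cells. It was 3.07 to 3.45 (*Kcnj3*) and 2.03 to 4.14 (*Kcnj2*) in *Chat* cells and 2.54 to 3.39 (*Kcnj9*) in *Slc17a6* cells. These differences had no TMM scaling and no test, so they are not on the scale of the fitted log2 fold changes. The cause of these changes was not tested. The split of *Cldn5* cells by pericyte UMIs was chosen after seeing the data. The few UMIs of *Kcnj4*, *Kcnj6* and *Kcnj11* allowed no test, and *Chat* values rest on 7 and 30 cells.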
